A study of Mus musculus with 15 samples.

Results

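Matrix metalloproteinases (MMPs) are zinc-dependent enzymes that cut collagens, elastin and other components of the extracellular matrix, and tissue inhibitors of metalloproteinases (TIMPs) bind and block them. Their transcripts were followed in whole lungs of male C57BL/6 mice, 10 to 12 weeks old by the methods of the study, given 5 U/kg bleomycin by the intratracheal route, a drug that breaks DNA and leaves the lung fibrotic. The genes were chosen by symbol from the raw count table: the secreted enzymes Mmp2, Mmp3, Mmp9, Mmp12, Mmp13 and Mmp19, the membrane-anchored enzyme Mmp14, and the inhibitors Timp1, Timp2 and Timp3. All 10 were among the 33340 genes in the table, and all 10 were among the 17457 that passed the filter on low counts.

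RNA-seq of polyadenylated RNA gave 15 libraries, of which 4 were from day 0, 4 from day 7, 4 from day 14 and 3 from day 21 after bleomycin. All groups shared the strain and the tissue, and day 0 held the untreated lungs. Day 0 replicate 4 was titled as a control although its treatment label named bleomycin, and the title decided its group. No vehicle-treated group was analysed here, so time after bleomycin cannot be told apart from the instillation itself. The series' own description stated fewer replicates for a day than the titles did, and the titles set these numbers. The labels did not say whether libraries of a day came from separate animals, though the study calls those of days 0, 7 and 14 biological replicates. The p-values measured the spread between these libraries.

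Most MMPs are made as inactive proenzymes that are opened by plasmin, by furin-type enzymes or by another MMP, so a transcript level is not an enzyme activity. In the lung, macrophages are known for Mmp12, neutrophils for stored MMP9 protein, and fibroblasts for Mmp2, Mmp14 and the TIMPs. In RNA from a whole organ, fewer cells of a type and less RNA per cell cannot be told apart.

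Total counts ranged from 15652008 to 18020661 per library. The summed markers of the alveolar epithelium were detected in every library, at 22651 to 32632 in counts-per-million units (CPM) at day 0 and 4742 to 10279 CPM at day 21. The 16 mitochondrial genes held 2.03% to 2.15% of the counts in the day 7 libraries and in the other days ranged from 2.10% to 4.22%, so day 7 and a low mitochondrial share came together. Day 14 replicate 1 stood apart from the other day 14 libraries, with a mitochondrial share of 2.10% against 3.74% to 4.14%, and it held the highest level of its day for 9 of the 10 genes. Its marker sums also lay outside those of the other 3, at 1799 CPM for fibroblasts (723 to 830 in the others), 1231 for myofibroblasts (463 to 678), 1377 for macrophages (576 to 704) and 7993 for the alveolar epithelium (15954 to 19677). The fibroblast sums of the other 3 lay within the day 0 range of 633 to 859 CPM. Summed markers of cardiac muscle ranged from 11.8 to 665 CPM over the 15 libraries, and those of adipose tissue from 0.343 to 84.0 CPM.

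A gene was called changed with a Benjamini-Hochberg adjusted p under 0.05 in edgeR's quasi-likelihood test over all genes and a fold change above 1.5. Against day 0, 6 of the 10 genes were higher at day 7 and 1 was lower, where 8.78% of all tested genes were higher and 7.36% lower. At day 14, 6 were higher and 1 lower, against 12.0% and 11.2% of all genes, and at day 21, 7 were higher and 1 lower, against 12.4% and 10.1%. The median log2 fold change of the 10 genes was 1.44 at day 7, 1.41 at day 14 and 1.63 at day 21, while the median over all genes was 0.01, 0.02 and 0.02. All 3 comparisons used the same day 0 libraries. Mmp2, Mmp12, Mmp13, Mmp14 and Timp1 were higher in all 3, Mmp9 was lower in all 3, and Timp2 and Timp3 passed in none. Without day 14 replicate 1 the day 14 counts were again 6 higher and 1 lower.

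**Figure D1:**
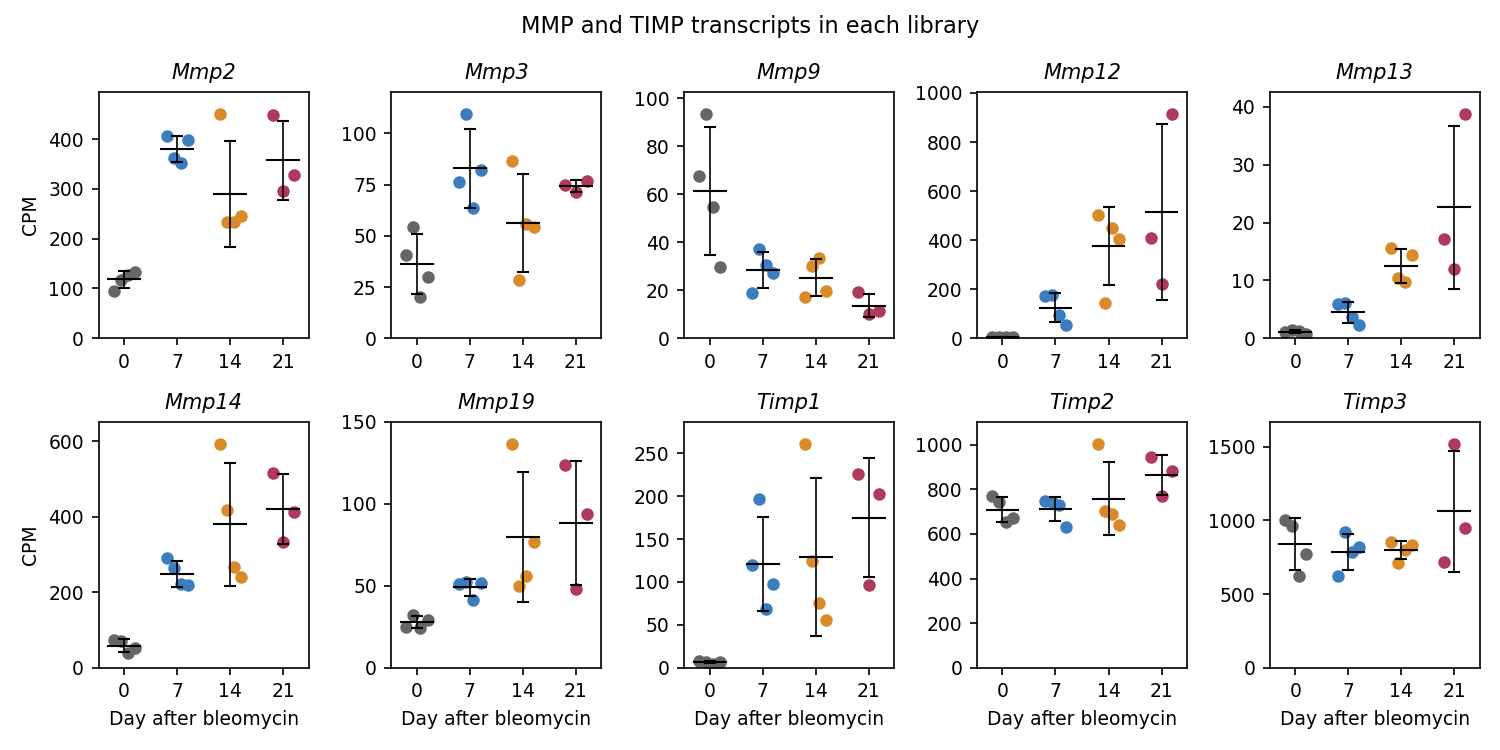
CPM (vertical axis, from 0, 1 scale per gene) of the 10 genes against day after bleomycin (horizontal axis), with a point per library, a line at the mean and bars of ± 1 SD (n = 4, 4, 4 and 3). Day 0 points lie lowest for Mmp2, Mmp12, Mmp13, Mmp14, Mmp19 and Timp1 and highest on average for Mmp9, while the points of Timp2 and Timp3 overlap between day 0 and each later day.

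Mmp12, the macrophage elastase, had the largest change of the 10 genes at each day. The day 0 libraries held 4.85, 4.11, 4.19 and 4.24 CPM (66 to 76 counts), and the day 7 libraries 172, 177, 94.1 and 55.9 CPM. Day 14 gave 501, 144, 451 and 405 CPM, and day 21 gave 408, 221 and 913 CPM. Every later library was above every day 0 library, and the day 0 libraries were the closest to each other. The log2 fold change was 4.84 at day 7 (SE 0.52, adjusted p = 4.17e-05 with edgeR), 6.43 at day 14 (SE 0.56, adjusted p = 2.17e-06) and 6.88 at day 21 (SE 0.58, adjusted p = 2.54e-06). These correspond to folds of 28.7, 86.2 and 118. Without day 21 replicate 3, the highest library, the day 21 log2 fold change was 6.13.

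Mmp13, the main interstitial collagenase of the mouse, was the lowest of the 10 genes per length at day 0. It held 1.17, 1.39, 1.27 and 0.725 CPM at day 0 (13 to 23 counts) and 5.95, 6.08, 3.63 and 2.32 CPM at day 7. It then held 15.7, 10.3, 9.73 and 14.4 CPM at day 14 and 17.1, 12.0 and 38.7 CPM at day 21. All day 14 and day 21 libraries were above all day 7 libraries, which were above all day 0 libraries. Against day 0 it had a log2 fold change of 1.98 at day 7 (SE 0.41, adjusted p = 0.00309 with edgeR), 3.46 at day 14 (SE 0.41, adjusted p = 1.94e-05) and 4.31 at day 21 (SE 0.42, adjusted p = 7.85e-06). The day 21 value was 3.63 without day 21 replicate 3.

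Mmp3, the stromelysin that cuts proteoglycans and opens other proMMPs, changed less. It held 40.7, 54.2, 20.1 and 29.7 CPM at day 0, 76.5, 109, 63.4 and 82.3 CPM at day 7, 86.6, 28.6, 55.9 and 54.1 CPM at day 14, and 74.9, 71.3 and 76.9 CPM at day 21. Day 7 and day 21 did not overlap day 0, whereas 2 of 4 day 14 libraries lay within it. Its log2 fold change was 1.20 at day 7 (SE 0.30, adjusted p = 0.0105 with edgeR), 0.64 at day 14 (SE 0.30, adjusted p = 0.115) and 1.04 at day 21 (SE 0.32, adjusted p = 0.0229). The day 21 call was lost when day 0 replicate 3 or 4 or any of the day 21 libraries was left out, with a log2 fold change of 0.81 to 1.03 in those fits. The day 7 value was 0.74 (adjusted p = 0.0976) after adjustment for the mitochondrial share. With that adjustment the day 14 value passed (0.76, adjusted p = 0.0179), and so it did without day 0 replicate 2 (0.88, adjusted p = 0.0430) or day 14 replicate 2 (0.84, adjusted p = 0.0325).

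Mmp13, Mmp12 and Mmp3 lie on the plus strand of 1 stretch of chromosome 9 (mm10), at chr9:7272514-7283331, chr9:7344381-7369499 and chr9:7445822-7455975, together with Mmp1a, Mmp7, Mmp8, Mmp10, Mmp20 and Mmp27 on that strand and Mmp1b on the other. Their RefSeq promoter windows (GRCm38.p6, 250 bases before to 50 after an annotated start) are shown in part, 125 bases before the start and 25 from it. They share matches to 2 motifs that had no exact match in the other 4 genes with a window. The window was searched on both strands for the AP-1 site TGACTCA, the TATA box TATAAA and the GC box GGGCGG. Capitals mark these matches, and a match on the other strand reads as its reverse complement.
Mmp13: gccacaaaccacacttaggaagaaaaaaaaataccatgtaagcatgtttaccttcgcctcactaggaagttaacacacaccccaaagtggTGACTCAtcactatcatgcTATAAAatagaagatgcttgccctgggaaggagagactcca
Mmp12: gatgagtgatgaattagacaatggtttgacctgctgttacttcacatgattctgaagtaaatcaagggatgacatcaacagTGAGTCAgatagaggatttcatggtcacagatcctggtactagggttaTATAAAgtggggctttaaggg
Mmp3: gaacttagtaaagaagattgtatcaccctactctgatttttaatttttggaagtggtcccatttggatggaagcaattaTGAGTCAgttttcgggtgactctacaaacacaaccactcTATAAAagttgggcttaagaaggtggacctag
These stretches are chr9:7272389-7272538, chr9:7347249-7347398 and chr9:7445697-7445846, all on the plus strand, and that of Mmp12 is the second of its 2 annotated starts. The AP-1 match began 35 bases before the start in Mmp13 and, on the other strand, 44 bases before it in Mmp12 and 46 before it in Mmp3. The TATAAA match began 16 bases before the start in Mmp13, 7 before it in Mmp3 and 4 after it in Mmp12. Whether these matches work as TATA boxes was not tested. The window of the first Mmp12 start held none of the 3 motifs. AP-1 matches were present in 5.20% and TATAAA in 13.6% of all 32851 promoter windows.

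The windows of Mmp14, Timp1, Timp2 and Timp3 held GC boxes and no exact match to TGACTCA or TATAAA, and the GC box was present in 35.7% of all windows. Variants of these letters were not searched for, so a site spelled otherwise would be missed. Those of Mmp14 and Timp1 are shown as the changed genes of this kind, at chr14:54431473-54431622 and chrX:20870041-20870190, both on the plus strand.
Mmp14: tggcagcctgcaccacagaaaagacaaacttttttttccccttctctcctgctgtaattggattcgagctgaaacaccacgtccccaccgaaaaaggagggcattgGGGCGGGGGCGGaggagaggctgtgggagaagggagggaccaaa
Timp1: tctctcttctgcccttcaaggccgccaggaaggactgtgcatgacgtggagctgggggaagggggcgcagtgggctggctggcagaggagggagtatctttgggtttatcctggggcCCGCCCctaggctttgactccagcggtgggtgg
Mmp14 held 2 adjoining GC boxes, starting 19 and 13 bases before the start, and Timp1 held 1 on the other strand, 8 bases before it. GC boxes were found both in genes that rose (Mmp14, Timp1) and in genes that did not pass the test (Timp2, Timp3). A match is a run of letters and no binding was measured. No window was used for Mmp2, Mmp9 and Mmp19.

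**Figure D2:**
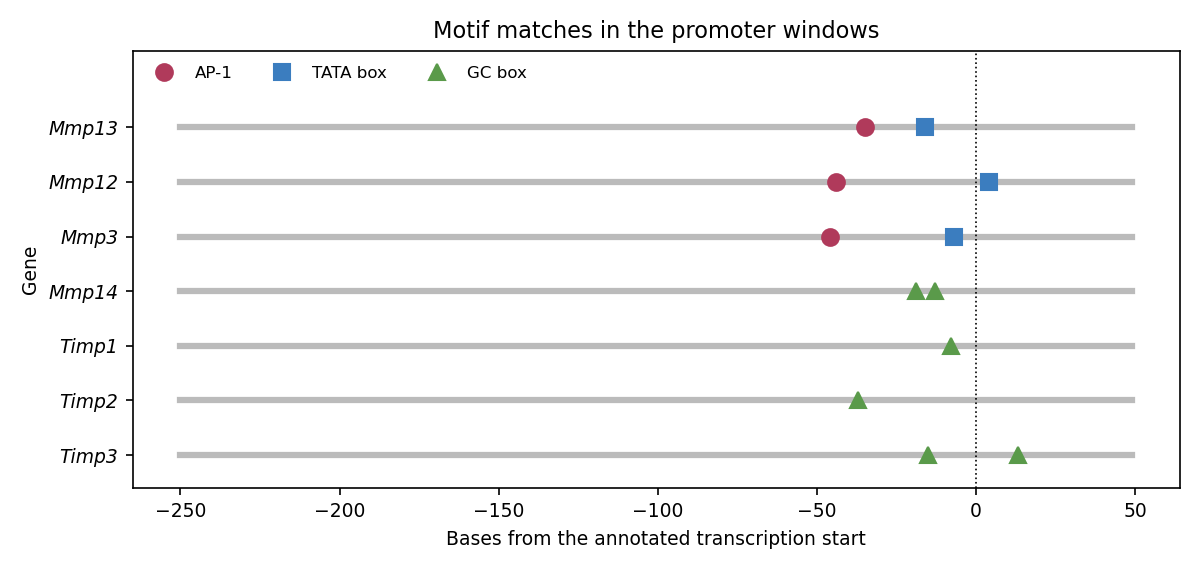
Positions of AP-1, TATA box and GC box matches (symbols, at the first base of each match) along the promoter windows of 7 genes, in bases from the annotated transcription start (dotted line at 0), with the second annotated start drawn for Mmp12. The AP-1 and TATA box matches lie in Mmp13, Mmp12 and Mmp3, and the GC boxes in the other 4 genes.

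Mmp2, the gelatinase that cuts denatured and basement membrane collagen, was at 94.8, 117, 128 and 134 CPM at day 0 and at 407, 362, 353 and 399 CPM at day 7. Day 14 gave 450, 233, 233 and 245 CPM and day 21 gave 448, 297 and 329 CPM. No later library reached down to day 0, and day 14 replicate 1 stood above the other 3 of its day. Its log2 fold change was 1.68 at day 7 (SE 0.21, adjusted p = 8.48e-05 with edgeR), 1.29 at day 14 (SE 0.20, adjusted p = 0.000242) and 1.60 at day 21 (SE 0.22, adjusted p = 8.81e-05). Of the 7 MMPs chosen, Mmp2 had the highest mean level per length at every day, although Mmp14 was above it in day 14 replicate 2 (173 against 170.3 TPM, transcripts-per-million units) and Mmp12 in day 21 replicate 3 (383 against 296 TPM). The merged annotated exons span 3371 bases in Mmp2 and 7237 in Mmp12, and the order depends on these lengths.

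Mmp14, which cuts fibrillar collagen at the cell surface and activates proMMP2, held 72.7, 71.4, 38.5 and 53.7 CPM at day 0 and 292, 264, 223 and 220 CPM at day 7. It held 593, 419, 266 and 241 CPM at day 14 and 516, 332 and 414 CPM at day 21. The groups did not overlap day 0, and all 3 day 21 libraries were above all day 7 libraries. Against day 0 it had a log2 fold change of 2.08 at day 7 (SE 0.27, adjusted p = 0.000134 with edgeR), 2.68 at day 14 (SE 0.28, adjusted p = 6.89e-06) and 2.83 at day 21 (SE 0.29, adjusted p = 9.77e-06).

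Mmp19, an MMP of basement membrane substrates, held 25.1, 32.5, 24.5 and 29.2 CPM at day 0, 51.1, 52.1, 41.4 and 51.5 CPM at day 7, 137, 50.0, 56.2 and 77.0 CPM at day 14, and 124, 48.3 and 93.8 CPM at day 21. Every later library was above every day 0 library. The day 7 log2 fold change of 0.82 (SE 0.29, 95% interval 0.19 to 1.44) missed the threshold with an adjusted p of 0.0525 in edgeR, while DESeq2 gave 0.79 with an adjusted p of 0.0341. Mmp19 was higher at day 14 (log2 fold change 1.52, SE 0.30, adjusted p = 0.0012 with edgeR) and at day 21 (1.67, SE 0.31, adjusted p = 0.00103). Its exons share 789 bases with Tmem198b on the other strand, and the strand setting of the counting was not stated.

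Markers of other cell types also differed by day, and their counts stand against 8.78%, 12.0% and 12.4% of all genes higher and 7.36%, 11.2% and 10.1% lower at days 7, 14 and 21. The sum of the 5 fibroblast markers (Pdgfra, Pdgfrb, Col6a3, Dcn and Lum) was 633 to 859 CPM at day 0, 1000 to 1270 CPM at day 7, 723 to 1799 CPM at day 14 and 1182 to 1780 CPM at day 21, with 2, 2 and 3 of the 5 higher at days 7, 14 and 21 (1 to 2, 1 to 3 and 2 to 3 when 1 library was left out). The sum of the 4 injury macrophage markers (Spp1, Trem2, Gpnmb and Fabp5) was 126 to 181 CPM at day 0, 568 to 1029 CPM at day 7, 1677 to 4394 CPM at day 14 and 1555 to 4399 CPM at day 21, with 3, 4 and 3 of the 4 higher (3, 3 to 4 and 3 when 1 library was left out). The myofibroblast sum (Acta2, Tagln, Postn and Cthrc1) was 269 to 320 CPM at day 0 and 454 to 1043 CPM at day 21, with 1, 3 and 3 of the 4 higher at days 7, 14 and 21 (1, 2 to 3 and 2 to 3 when 1 library was left out). The general macrophage markers Cd68, Adgre1, Mrc1 and Csf1r summed to 297 to 353 CPM at day 0 and 628 to 1113 CPM at day 21, with 2, 4 and 3 of the 4 higher (2, 3 to 4 and 3 to 4 when 1 library was left out). None of these 17 markers was at 0 in any library.

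Other marker lists held genes that were lower. Of the 5 resident alveolar macrophage markers (Siglecf, Marco, Chil3, Fabp1 and Krt79), 2, 2 and 3 were lower at days 7, 14 and 21, and 1 (Marco) was higher at day 14. Marco was at 434 CPM in day 14 replicate 2, where the median of its day was 43.5, and without that library the log2 fold change went from 2.44 to 0.50 (adjusted p = 0.429 with edgeR). Its call was also lost without day 0 replicate 1, 2 or 3 (2.30 to 2.45, adjusted p = 0.0523 to 0.0633). Krt79 fell from a mean of 34.9 CPM at day 0 to 9.20, 1.55 and 0.43 CPM, while the sum of the 5 was 649 to 958 CPM at day 0 and 1098 to 2331 CPM at day 21, most of it Chil3. Of the 5 alveolar epithelial markers, 1, 2 and 3 were lower (0 to 1, 0 to 2 and 2 to 3 when 1 library was left out). Those of endothelium (Pecam1, Cdh5, Kdr and Tie1) summed to 2000 to 2490 CPM at day 0 and 1433 to 1705 CPM at day 21, with 1, 2 and 1 of the 4 lower (1, 1 to 4 and 0 to 2 when 1 library was left out). Those of mesothelium (Msln, Upk3b and Wt1) summed to 150 to 255 CPM at day 0 and 359 to 881 CPM at day 14, with 0, 1 and 1 of the 3 higher, in both cases Msln. The part of all these markers in the changes of Mmp2, Mmp3, Mmp12, Mmp13, Mmp14, Mmp19 and Timp1 was not tested.

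Mmp9, the gelatinase stored in neutrophil granules, was the single gene of the 10 that fell. It held 67.6, 93.2, 54.6 and 29.5 CPM at day 0, 18.7, 37.1, 30.3 and 27.2 CPM at day 7, 17.3, 30.2, 33.3 and 19.9 CPM at day 14, and 19.3, 10.2 and 11.4 CPM at day 21. At day 7 and at day 14, 2 of 4 libraries lay below all of day 0, and at day 21 all 3 did. Its log2 fold change was -1.11 at day 7 (SE 0.32, adjusted p = 0.0197 with edgeR), -1.28 at day 14 (SE 0.32, adjusted p = 0.00635) and -2.17 at day 21 (SE 0.37, adjusted p = 0.000502). The day 7 call was lost without day 0 replicate 2 (-0.86, adjusted p = 0.0575), without day 7 replicate 1 (-0.98, adjusted p = 0.0604) and after adjustment for the mitochondrial share (-1.16, adjusted p = 0.0658). The day 14 call was lost among libraries with a mitochondrial share over 3.5% (-0.61, adjusted p = 0.187, 2 day 0 and 3 day 14 libraries).

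Of the 5 neutrophil markers S100a8, S100a9, Csf3r, Cxcr2 and Retnlg, 4 were lower at day 7, 2 at day 14 and 4 at day 21, where 7.36%, 11.2% and 10.1% of all genes were, and none was at 0 in any library. Leaving out 1 library gave 4, 2 to 4 and 4 to 5 lower, with 4 at day 14 without day 14 replicate 3. Their sum was 605, 865, 588 and 388 CPM in day 0 replicates 1 to 4. Mmp9 had the same order as this sum among the day 0 libraries and another order at day 7. At days 14 and 21 the order differed only in the 2 libraries with the lowest sums. These sums were close, at 132 and 124 CPM at day 14 and 75.5 and 73.9 CPM at day 21. The sum was 86.1 to 252 CPM at day 7, 124 to 434 CPM at day 14 and 73.9 to 157 CPM at day 21. The part of these markers in the Mmp9 values was not tested.

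**Figure D3:**
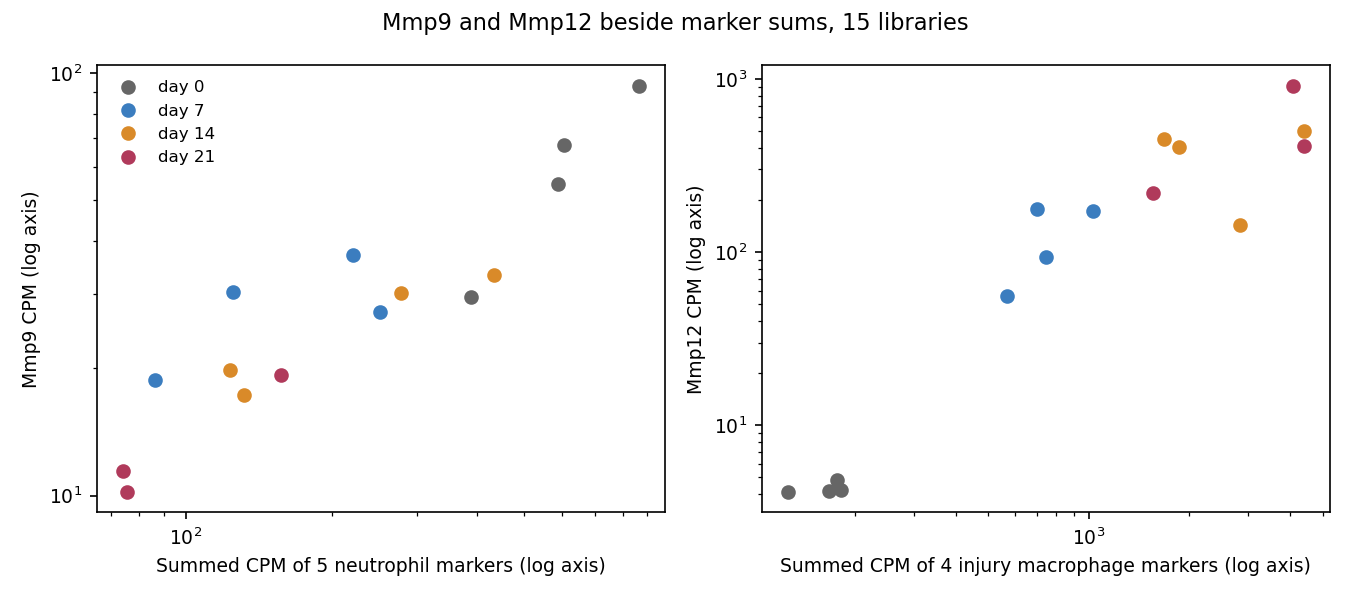
Left, Mmp9 CPM against the summed CPM of 5 neutrophil markers, and right, Mmp12 CPM against the summed CPM of 4 injury macrophage markers, with a point per library coloured by day and both axes logarithmic. The day 0 libraries reach the highest values of both Mmp9 (93.2 CPM) and the neutrophil sum (865 CPM), and they hold the lowest Mmp12 values (4.11 to 4.85 CPM) and the lowest injury macrophage sums (126 to 181 CPM).

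Timp1, the secreted inhibitor that rises in many injured tissues, was the only TIMP of the 3 that passed the test. It held 7.44, 6.71, 4.57 and 6.36 CPM at day 0, 120, 196, 68.8 and 97.6 CPM at day 7, 261, 124, 75.7 and 55.8 CPM at day 14, and 226, 96.6 and 203 CPM at day 21. Every later library was above every day 0 library, and the later days overlapped each other. The log2 fold change was 4.26 at day 7 (SE 0.49, adjusted p = 5.04e-05 with edgeR), 4.36 at day 14 (SE 0.49, adjusted p = 1.31e-05) and 4.80 at day 21 (SE 0.51, adjusted p = 1.24e-05). The day 14 value was 3.74 without day 14 replicate 1. Timp1 lies inside Syn1 on the other strand at chrX:20870166-20874735 and shares no exonic base with it.

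Timp2, which also takes part in the activation of proMMP2 by MMP14, held 770, 742, 653 and 672 CPM at day 0, 748, 742, 728 and 632 CPM at day 7, 1003, 705, 689 and 638 CPM at day 14, and 945, 768 and 880 CPM at day 21. Each later day overlapped day 0, and day 14 replicate 1 was the highest library. The log2 fold changes were 0.01 (SE 0.14, 95% interval -0.29 to 0.31), 0.10 (SE 0.14, -0.20 to 0.40) and 0.29 (SE 0.15, -0.04 to 0.61) at days 7, 14 and 21, with adjusted p-values of 0.979, 0.627 and 0.173 in edgeR. Only the day 21 interval reaches past a fold of 1.5.

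Timp3, which binds to the matrix and also inhibits ADAM proteases, held 1000, 963, 620 and 770 CPM at day 0, 619, 918, 787 and 819 CPM at day 7, 852, 712, 798 and 832 CPM at day 14, and 718, 1517 and 948 CPM at day 21. The day 21 libraries were spread widely, with replicate 2 highest. The log2 fold changes were -0.09 (SE 0.21, 95% interval -0.54 to 0.35), -0.07 (SE 0.21, -0.51 to 0.37) and 0.34 (SE 0.22, -0.14 to 0.82), with adjusted p-values of 0.776, 0.827 and 0.276 in edgeR. Timp3 lies inside Syn3 on the other strand and shares 1733 exonic bases with it, and Syn3 held 339 counts over all libraries against 218083 for Timp3.

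**Figure D4:**
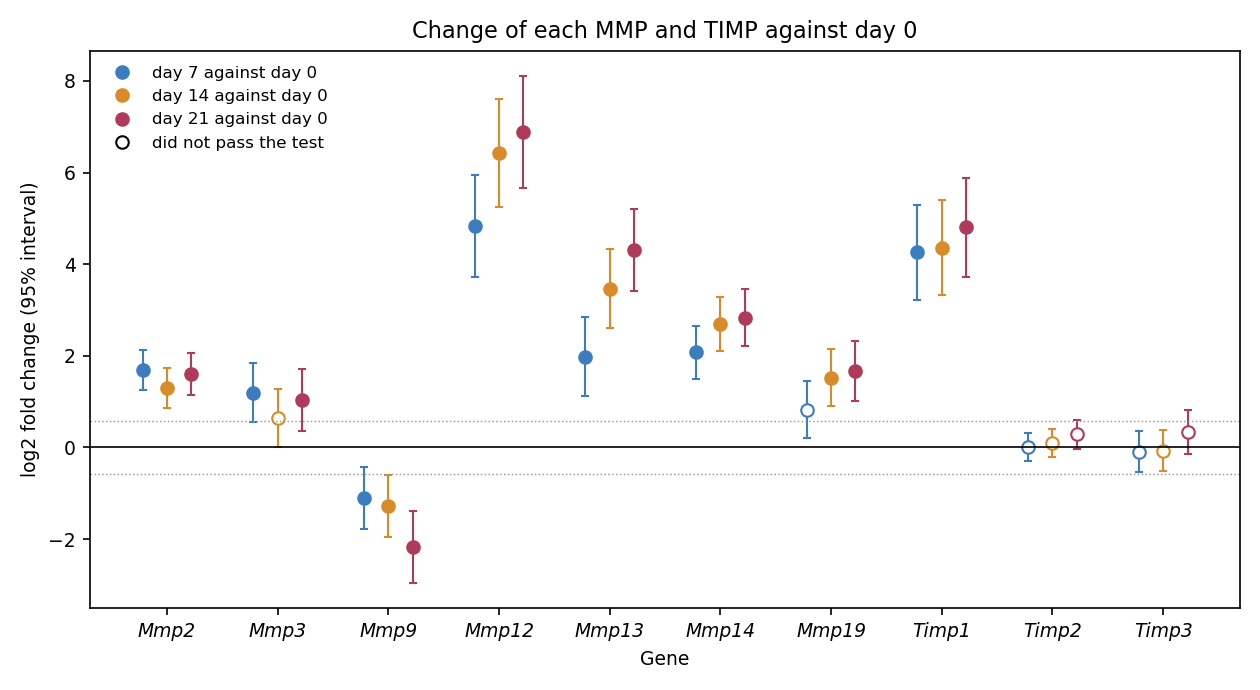
Log2 fold change of CPM against day 0 (vertical axis) of each of the 10 genes (horizontal axis) at days 7, 14 and 21, with 95% intervals; filled points passed the test, open points did not, and dotted lines mark a fold of 1.5 in each direction. Mmp12 lies highest, from 4.84 to 6.88, Mmp9 lies below 0 at each day, and the intervals of Timp2 and Timp3 hold 0.

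Between the later days, only Mmp12 and Mmp13 of the 10 genes passed the edgeR test. From day 7 to day 14, both were higher and none of the 10 was lower, where 2.77% of all genes were higher and 3.23% lower. The log2 fold change was 1.59 for Mmp12 (SE 0.44, adjusted p = 0.0393 with edgeR) and 1.48 for Mmp13 (SE 0.36, adjusted p = 0.0254). The Mmp12 groups overlapped, with 3 of 4 day 14 libraries above all of day 7, and those of Mmp13 did not. The Mmp12 call was lost in 6 of the 8 fits that left out 1 library, all but those without day 7 replicate 2 or day 14 replicate 2 (log2 fold change 1.35 to 1.86 over the 8), and the Mmp13 call was lost without day 7 replicate 3 (1.39, adjusted p = 0.0681) or replicate 4 (1.26, adjusted p = 0.0715). After adjustment for the mitochondrial share the Mmp12 call was also lost (1.97, adjusted p = 0.0870 with edgeR). Without day 14 replicate 1, Mmp2 was lower at day 14 than at day 7 (log2 fold change -0.68, adjusted p = 0.0149), while with it the value was -0.39 (SE 0.20, adjusted p = 0.239).

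From day 7 to day 21, Mmp12 and Mmp13 were higher and none was lower, where 5.20% of all genes were higher and 4.34% lower. The log2 fold change was 2.04 for Mmp12 (SE 0.47, adjusted p = 0.0131 with edgeR) and 2.33 for Mmp13 (SE 0.38, adjusted p = 0.00274). Without day 21 replicate 3, that of Mmp12 was 1.30 (adjusted p = 0.0633) and that of Mmp13 was 1.66. Mmp14 had a log2 fold change of 0.75 (SE 0.28, adjusted p = 0.0835) and Timp2 of 0.28 (SE 0.15, adjusted p = 0.230) in edgeR. Mmp14 passed in a fit of the 2 groups alone (0.75, adjusted p = 0.0248) and after adjustment for the mitochondrial share (1.24, adjusted p = 0.0210). Mmp9 had -1.06 (SE 0.36, adjusted p = 0.0615) in edgeR, and DESeq2 gave -1.06 with an adjusted p of 0.0222. Mmp19 had 0.85 (SE 0.31, adjusted p = 0.0779) in edgeR and an adjusted p of 0.0478 in DESeq2.

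From day 14 to day 21, 0 of the 10 genes changed in either direction in edgeR, where 0% of all genes were higher and 0% lower. DESeq2 and limma voom also called 0 of the 10. At an unadjusted p under 0.05, 2 of the 10 and 1714 of the 17457 genes were counted. The 2 were Mmp9 (log2 fold change -0.89, SE 0.36, unadjusted p = 0.0245) and Mmp13 (0.85, SE 0.36, unadjusted p = 0.0332), chosen here after their values were seen.

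Levels were compared between genes only per length, in TPM over the merged annotated exons. At day 0, Timp2 (462 ± 56.6 TPM, SD, n = 4) was above Timp3 (263 ± 63.6) without overlap, and both were above Mmp2 (89.5 ± 17.8). Mmp3 (51.6 ± 22.5), Mmp9 (43.6 ± 19.8), Mmp14 (25.3 ± 7.63), Mmp19 (20.1 ± 4.28) and Timp1 (18.0 ± 4.28) followed, and the ranges of neighbours from Mmp2 down to Timp1 overlapped. Mmp12 (1.52 ± 0.16) and Mmp13 (1.07 ± 0.25) stood below all of these and overlapped each other.

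At day 21 the order was Timp2 (652 ± 58.1 TPM, SD, n = 3), Timp1 (578 ± 221), Timp3 (385 ± 154), Mmp2 (311 ± 58.7), Mmp12 (211 ± 153), Mmp14 (207 ± 39.8), Mmp3 (122 ± 6.93), Mmp19 (73.3 ± 29.8), Mmp13 (25.1 ± 16.5) and Mmp9 (11.2 ± 3.66). Timp1 had moved from the eighth place to the second and Mmp12 from the ninth to the fifth, while Mmp9 had moved from the fifth to the last. The fifth place of Mmp12 rested on day 21 replicate 3 (383 TPM). Its replicates 1 and 2 held 159 and 90.4 TPM, below the lowest Mmp14 library of that day (165 TPM). Neighbours overlapped except between Mmp14 and Mmp3 and between Mmp3 and Mmp19. The merged exons of Mmp12 span 7237 bases and those of Timp1 888, and the levels depend on these lengths.

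The TPM of the 7 MMP genes summed to 233 ± 50.5 at day 0 and to 666 ± 68.4, 765 ± 308 and 960 ± 236 on days 7, 14 and 21. The 3 TIMP genes summed to 743 ± 123, 1147 ± 233, 1247 ± 494 and 1615 ± 139. The summed TIMP level divided by the summed MMP level was 3.23 ± 0.36 at day 0 and 1.71 ± 0.19, 1.65 ± 0.26 and 1.73 ± 0.32 at days 7, 14 and 21, and no later library (highest 2.10) reached the lowest day 0 library (2.79). The distance between day 0 and later days depended on the genes summed. With all 22 MMP and 4 TIMP genes of the table, chosen after seeing the data, the ratio was 1.75 ± 0.18 at day 0 and 1.35 ± 0.19, 1.35 ± 0.23 and 1.501 ± 0.24 later, and later libraries (1.13 to 1.77) overlapped those of day 0 (1.498 to 1.91). These sums are given as a description, without a test, and they weigh transcripts, not enzymes and inhibitors.

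The make-up of each class also differed by day. Timp1 made up 2.40% ± 0.24 of the TIMP sum at day 0 and 31.6% ± 8.61, 30.5% ± 11.5 and 35.2% ± 11.5 at days 7, 14 and 21. Mmp9 made up 18.5% ± 5.81 of the MMP sum at day 0 and 3.34% ± 0.92, 2.96% ± 1.41 and 1.19% ± 0.33 later, while Mmp12 went from 0.67% ± 0.12 to 6.98% ± 2.84, 19.4% ± 7.45 and 20.5% ± 11.0.

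**Figure D5:**
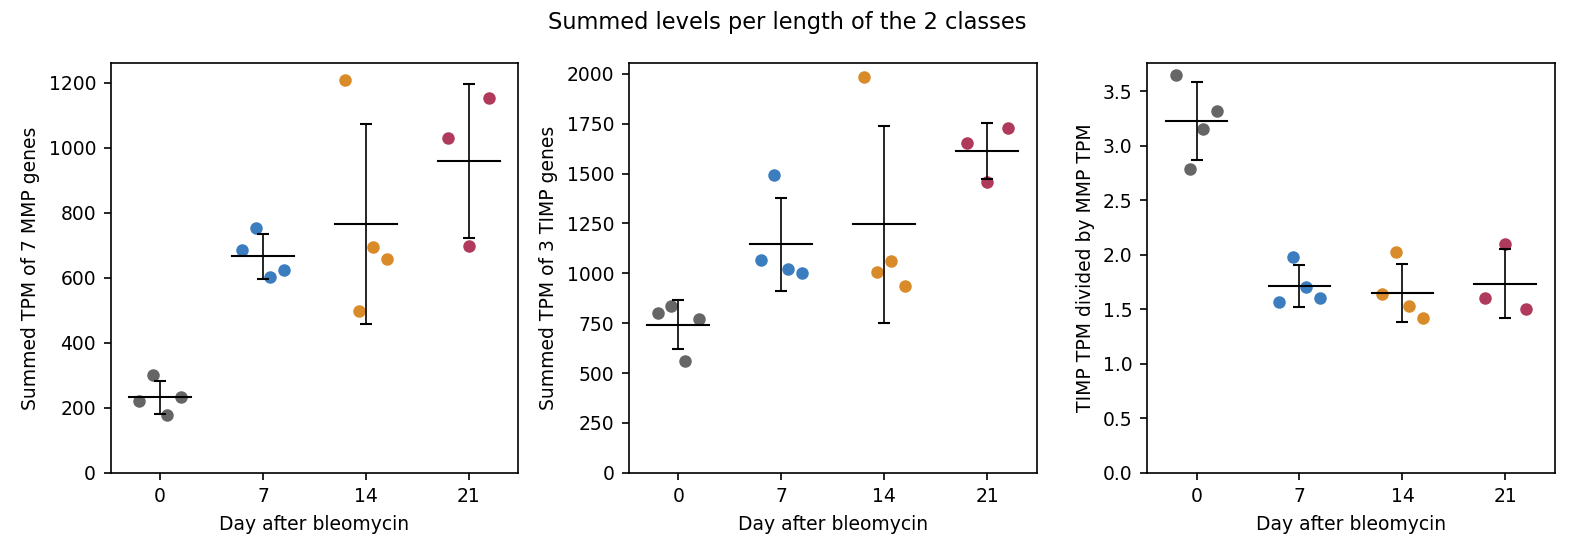
Summed TPM of 7 MMP genes (left), summed TPM of 3 TIMP genes (middle) and their ratio (right, TIMP divided by MMP) against day after bleomycin, with a point per library, a line at the mean, bars of ± 1 SD and vertical axes from 0. The 4 day 0 ratios lie between 2.79 and 3.65 and the 11 later ratios between 1.42 and 2.10.

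Over the 15 libraries, the genes most like each of the 10 were ranked by Pearson's r of log2 CPM among 11781 candidates with a mean of at least 5 CPM. The points share their days and libraries, so r is given as a description. Mmp9 was closest to Cxcr2 (r = 0.955), H2-Q10 (0.944) and Csf3r (0.934), of which Cxcr2 and Csf3r are receptors of neutrophils. Mmp14 was closest to the scavenger receptor Msr1 (0.993), the collagen-modifying enzyme P4ha3 (0.990) and the collagen chain Col5a2 (0.987). Timp1 was closest to the acute-phase gene Saa3 (0.985), the adhesion gene Chl1 (0.983) and the chemokine Ccl2 (0.982). The closest genes were Lhfpl2 for Mmp12 (0.977), Cpxm1 for Mmp2 (0.973), Cd84 for Mmp13 (0.971), Tgfbr2 for Mmp3 (0.961), Clec4a1 for Timp2 (0.937) and Trim44 for Timp3 (0.932). Between the 10 genes themselves, the highest r was that of Mmp14 and Timp1 (0.972) and the lowest that of Mmp9 and Mmp12 (-0.777). With the day means taken out, the highest were Mmp14 with Timp2 (0.872) and with Timp1 (0.856), and the median of the 45 pairs was 0.37.

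Of the 17 other MMP and TIMP genes, 16 were in the table and 11 were tested. Against day 0, 1 was higher and 1 lower at day 7, and 2 were higher and 2 lower at days 14 and 21. Mmp10 was among the higher genes at each day and passed the filter through the groups in which it was high. With 2 groups alone 0 were higher at day 7 and 1 at day 14, and among libraries under 2.5% mitochondrial counts 2 were higher and 3 lower at day 7. The shares in the fit over all libraries are near those of all genes (8.78% higher and 7.36% lower at day 7, 12.0% and 11.2% at day 14, and 12.4% and 10.1% at day 21). Mmp15, a membrane-anchored MMP, was at 211 ± 42.3 CPM at day 0 and at 155 ± 36.3, 74.6 ± 36.8 and 50.5 ± 4.20 CPM on the later days. It was lower at day 14 (log2 fold change -1.50, SE 0.29, adjusted p = 0.00106 with edgeR) and day 21 (-2.06, SE 0.32, adjusted p = 0.000283), and the day 14 call was lost among libraries with a mitochondrial share over 3.5% (-1.07, adjusted p = 0.0514). Per length Mmp15 stood at 99.7 ± 24.6 TPM at day 0, overlapping Mmp2. Mmp28, the secreted enzyme epilysin, was at 32.3 ± 3.28 CPM at day 0 and at 16.7 ± 5.88, 14.8 ± 3.99 and 16.5 ± 1.95 CPM later, with log2 fold changes of -0.95, -1.12 and -0.97 and all later libraries below day 0. The day 7 call of Mmp28 was lost after adjustment for the mitochondrial share (-0.88, adjusted p = 0.0555).

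Mmp10, a stromelysin, lies next to Mmp1a and beyond Mmp3 on chromosome 9. It had 0 counts in every day 0 library and 6 to 34, 3 to 78 and 20 to 77 counts per library at days 7, 14 and 21. Against a floor of 3 counts per day 0 library, its mean CPM was at least 6.67-fold higher at day 7, 11.6-fold at day 14 and 16.0-fold at day 21, and the day 14 bound was 7.14-fold without day 14 replicate 1. Mmp10 passed the filter on low counts through the later days, and the filter removed it when day 0 was fitted with day 7 or day 14 alone, so these bounds are given as a description with no test. Mmp23 was higher at day 14 (log2 fold change 0.77, SE 0.24, adjusted p = 0.0198 with edgeR) and at day 21 (1.04, SE 0.25, adjusted p = 0.00582). The day 14 call of Mmp23 was lost in 4 of 8 fits that left out 1 library (without day 0 replicate 1 or 2 or day 14 replicate 1 or 2) and among libraries with a mitochondrial share over 3.5% (0.45, adjusted p = 0.248), and the day 21 call was lost without day 21 replicate 1 (0.64, adjusted p = 0.0694).

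Of 10 activators, inhibitors and binding partners of MMPs, 9 were tested. Of these, 3 were higher and 1 lower at day 7, 6 and 1 at day 14, and 5 and 1 at day 21. Of all genes, 8.78%, 12.0% and 12.4% were higher and 7.36%, 11.2% and 10.1% lower, so the single lower gene is near the share of all genes. A2m, a broad protease trap, had 2 to 7 counts per day 0 library and 70 to 77, 28 to 240 and 68 to 102 counts per library later, with log2 fold changes of 4.04, 4.47 and 4.41. It was among the higher genes at each day and passed the filter on low counts through the later days, so these values are given as a description with no test. The day 14 value was 3.39 without day 14 replicate 1, and the day 7 value 3.21 after adjustment for the mitochondrial share. Plau, the urokinase that forms plasmin, was at 6.44 ± 2.41 CPM at day 0 and 26.2 ± 9.55, 32.7 ± 5.80 and 39.7 ± 15.1 CPM later (log2 fold change 2.02, 2.34 and 2.62). Reck, a membrane-anchored MMP inhibitor, was lower at each day, from 86.4 ± 7.18 CPM at day 0 to 54.2 ± 8.69, 36.4 ± 6.64 and 37.5 ± 9.10 CPM (log2 fold change -0.67, -1.25 and -1.20), with no overlap with day 0.

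Plat, the tissue plasminogen activator, was higher at day 14 (log2 fold change 0.99, SE 0.29, adjusted p = 0.0169 with edgeR), a call lost without day 0 replicate 3 or 4 or day 14 replicate 2 (0.78 to 0.84). Its day 21 value of 0.78 (SE 0.31, adjusted p = 0.0701) missed the threshold and passed with the replicate block (0.82, adjusted p = 0.0100), with the mitochondrial covariate (0.93, adjusted p = 0.0268), without the filter (0.73, adjusted p = 0.0463) and without day 0 replicate 2 (0.97, adjusted p = 0.0351). Lrp1, an endocytic receptor that clears MMPs and TIMPs, was at 500 ± 41.8 CPM at day 0 and 781 ± 103, 804 ± 314 and 1021 ± 120 CPM later. Its log2 fold change was 0.64 at day 7, 0.69 at day 14 and 1.03 at day 21, and the day 7 call was lost when any 1 of the 4 day 0 libraries or day 7 replicate 1 or 2 was left out, and after adjustment for the mitochondrial share (0.39, adjusted p = 0.274 with edgeR). The day 14 call was lost without day 14 replicate 1 (0.35, adjusted p = 0.0543), with 2 groups alone (0.66, adjusted p = 0.0523) and among libraries with a mitochondrial share over 3.5% (0.37, adjusted p = 0.148).

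All 8 matrix substrates of MMPs on the list were higher at each day, where 8.78%, 12.0% and 12.4% of all genes were, with a median log2 fold change of 2.21, 2.55 and 2.72 at days 7, 14 and 21. Tnc, the matrix protein tenascin C, went from 9.85 ± 2.88 CPM at day 0 to 219 ± 44.5, 379 ± 278 and 378 ± 201 CPM (log2 fold change 4.47, 5.26 and 5.26). Eln, elastin and a substrate of Mmp12, went from 245 ± 43.9 CPM to 1665 ± 334, 4527 ± 1978 and 4670 ± 1153 CPM (log2 fold change 2.76, 4.21 and 4.25). The fibrillar collagens Col1a1, Col1a2 and Col3a1 had log2 fold changes of 2.87, 2.23 and 2.11 at day 14, and Fn1 had 3.33. Without day 14 replicate 1, the day 14 values were 2.08 for Col1a1, 1.53 for Col1a2, 2.68 for Fn1 and 4.603 for Tnc. The day 7 call of Col1a2 was lost after adjustment for the mitochondrial share (1.24, adjusted p = 0.0561 with edgeR).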

How the data were processed

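Whole-lung polyadenylated RNA from 15 libraries was sequenced in pairs on an Illumina instrument. The authors trimmed the reads, aligned them to mm10 with HISAT2 2.1.0, dropped those that mapped to more than 1 place and deposited the HTSeq 0.6.0 counts for each Ensembl gene without normalizing them. The annotation release and strand setting were not given in the sources used here, so counts of genes that overlap others are uncertain. Reads of near-identical copies were lost with the multiple alignments. Symbols, coordinates and exon lengths came from GENCODE M21, which matched 33267 of 33340 identifiers.

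Groups came from the sample titles. Raw counts were fitted in edgeR 4.0.16 (R 4.3.3) with TMM factors, filterByExpr and the quasi-likelihood test on all 15 libraries with day as the only factor, over 17457 genes. The biological coefficient of variation was 22.8%. CPM used TMM library sizes, and TPM divided counts by merged exon length. Alternatives were DESeq2 1.42.0, limma 3.58.1 (voom), other size factors and filters, glmTreat, 2 groups alone, a replicate block, the mitochondrial share, and leaving out each library. The same alternatives were added for the lists of other genes, and leaving out each library for the cell type markers, after seeing the data. The statistical scripts were tested on simulated data. The floor of 3 counts covers counting error only.

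The 10 genes and the lists were chosen with earlier results of these data known. From the lists of other MMPs, regulators and substrates, up to 6 changed genes per list were named by size of change at day 14, and 3 genes by likeness were ranked for each of the 10, leaving out predicted genes and immune receptor segments. The values of some genes are not reported here, although counts over gene lists include them.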

Additional observations from a re-analysis of the deposited data

Results flagged for a closer look

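In groups of 4 libraries, 1 library stood far from the other 3 in 3 of the 30 groups examined, where chance gives about 5% of groups. Mmp2 in day 14 replicate 1 was at 449.9 CPM, while the other 3 of that day held 233 to 245 CPM. The same library held a fibroblast marker sum of 1799 CPM against 723 to 830 CPM, whose part in the value was not tested. Mmp19 in day 7 replicate 3 was at 41.4 CPM, against 51.1 to 52.1 CPM in the others. Timp2 in day 7 replicate 4 was at 632 CPM, against 728 to 748 CPM, and the same library held 558 CPM of cardiac muscle markers where the other 3 held 24.1 to 49.6 CPM, 84.0 CPM of adipose markers against 3.51 to 15.1 CPM and 93.0 CPM of mesothelial markers against 250.2 to 390 CPM, whose part in the value was not tested.

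The change against day 0 differed between days, by the test of 1 later day against another, for Mmp12 and Mmp13. For Mmp12 the difference was 1.59 on the log2 scale between days 14 and 7 and 2.04 between days 21 and 7. The first call was lost in 6 of the 8 fits that left out 1 library, and the second without day 21 replicate 3 (adjusted p = 0.0633 with edgeR). For Mmp13 the difference was 1.48 between days 14 and 7, a call lost without day 7 replicate 3 or 4, and 2.33 between days 21 and 7. Under glmTreat only the Mmp13 call between days 21 and 7 was kept.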

How the results depend on the processing

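For the 10 genes over 6 comparisons, 1049 of 1130 alternative values kept the direction and the side of the threshold, 28 lost a call, 20 gained 1 and 33 turned direction. In comparisons with day 0, the count of lower genes became 0 at day 7 under glmTreat and after adjustment for the mitochondrial share, and 0 at day 14 under glmTreat and among libraries with over 3.5% mitochondrial counts. It ranged from 0 to 1 at day 7 when 1 library was left out. Between days 7 and 14, the count of higher genes became 1 with the replicate block and with the mitochondrial covariate and 0 under glmTreat. Leaving out 1 library gave 0 to 2 higher and 0 to 1 lower. Between days 7 and 21, 1 gene was lower under DESeq2, without the filter, with the 2 groups alone and with the replicate block, 3 in place of 2 were higher under those 4 and with the mitochondrial covariate, 1 was higher under glmTreat, and leaving out 1 library gave 1 to 3 higher and 0 to 1 lower. The cause was not tested.

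Direction turned in values that passed no test, of which the largest were -0.56 (Mmp3, day 14 against day 7) and 0.45 (Mmp12, day 21 against day 14). Timp2 at day 7 against day 0 became -0.0191 under DESeq2, -0.0217 with RLE factors, -0.0205 with the 2 groups alone, -0.00898 without the filter, -0.0286 at a mean of at least 1 CPM, -0.18 with the mitochondrial covariate and -0.10 among libraries under 2.5%. Timp1 at day 14 against day 7 became -0.04996 with the replicate block and -0.05004 with limma voom. With the mitochondrial covariate, Timp3 at day 14 against day 0 became 0.00612 (0.16 among libraries over 3.5%), Mmp3 at day 14 against day 7 became 0.0202, and Mmp2 and Mmp3 at day 21 against day 7 became 0.0326 and 0.45. When 1 library was left out, the ranges that crossed 0 against day 0 were -0.0539 to 0.0595 (Timp2, day 7), -0.0871 to 0.17 (Timp2, day 14) and -0.0479 to 0.52 (Timp3, day 21). Against day 7 they were -0.0707 to 0.17 (Timp2), -0.0751 to 0.11 (Timp3) and -0.50 to 0.44 (Timp1) at day 14, and -0.30 to 0.00479 (Mmp2) and -0.26 to 0.00688 (Mmp3) at day 21. Against day 14 they were -0.28 to 0.80 (Mmp12), -0.0415 to 0.44 (Mmp14) and -0.18 to 0.52 (Mmp19) at day 21.

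Replicate numbers were shared between days, but in none of the 6 comparisons did the deviations of every same-numbered pair correlate above 0.1, so the numbers were not taken to pair the libraries. A partial pairing could fail this rule, so the rule cannot exclude it. The correlation was above 0.1 for 2 of 4 numbers between days 0 and 7 (highest 0.221) and between days 7 and 14 (0.262), for 2 of 3 between days 7 and 21 (0.220) and between days 14 and 21 (0.397), and for none between day 0 and days 14 or 21. The same-numbered library was the closest for 2 of 4 numbers between days 0 and 7 and between days 7 and 14. It was the closest for 1 of 3 between days 7 and 21, for 2 of 3 between days 14 and 21, and for none between day 0 and days 14 or 21. With the replicate block, Mmp19 at day 7 against day 0 passed (log2 fold change 0.80, adjusted p = 0.0393 with edgeR), Mmp12 at day 14 against day 7 did not (1.51, adjusted p = 0.0559), and Mmp9 (-1.16, adjusted p = 0.0476) and Mmp14 (0.67, adjusted p = 0.0481) passed at day 21 against day 7. It changed no other call of the 10 genes. Low day 0 counts of Mmp13 and A2m, and 3 libraries at day 21, limit the precision of their values.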
